A study of Rattus norvegicus with 20 samples.

Results

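The genes described here encode proteins that hepatocytes secrete into the blood: acute phase proteins, the iron hormone hepcidin, fibrinogen, clotting factors and their inhibitors, complement, albumin and transferrin, and the heavy chains of the inter-alpha-trypsin inhibitors. They were chosen by name, 44 genes in all, and each was read from the probe set that carried its symbol alone, the one with the highest mean over all arrays where there were several. Of the 44 genes, 38 had such a probe set, among 14217 genes measured in this way. Kng1 (high molecular weight kininogen), Cfb (complement factor B) and Tf (transferrin) lay only on probe sets shared with other genes, and none was found under the symbols F7, F11 and F13b, so these 6 genes were not analysed here as single genes. Liver RNA came from male Harlan Sprague Dawley rats given triphenyl phosphate, a flame retardant and plasticiser of the aryl phosphate class, in corn oil by gavage. The study asked how liver expression changes with dose over a short exposure: dosing was once a day for 4 days, and the liver was collected on day 5. The vehicle group received corn oil alone (0 mg/kg) and held 5 Affymetrix arrays, and the groups at 55, 110, 220, 440 and 881 mg/kg held 3 arrays each. The design text gives 441 mg/kg where the sample labels give 440 mg/kg. Nothing in the labels ties an array to an animal of its own, and the p-values therefore measure only how far these samples differ among themselves, some of which may be technical.

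Plasma proteins are made largely by hepatocytes, which secrete them through the endoplasmic reticulum. In inflammation, interleukin 6 acting through STAT3, and interleukin 1 acting through NF-kappa B and C/EBP factors, raise the positive acute phase genes (orosomucoid, haptoglobin, fibrinogen and, in the rat, alpha-2-macroglobulin) and lower negative ones such as albumin. Hepcidin binds and removes the iron exporter ferroportin, and its gene responds to bone morphogenetic proteins as well as to interleukin 6. Clotting ends in thrombin cutting fibrinogen to fibrin; antithrombin, heparin cofactor II and the protein C and protein S pair restrain it, and several of these proteins need vitamin K for their maturation.

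The promoters below belong to the called genes with the largest rise (Orm1) and the largest fall (Itih1) at 881 mg/kg, and to Hamp, which was added after its values were seen. Each runs from 250 bases before to 50 bases after the gene's start in RefSeq (build GRCr8), 5′ to 3′ on the gene's strand, and capitals mark matches to 4 motifs searched on both strands. These were a STAT element (TTCNNNGAA), a C/EBP element (TTGCNNAA), a bone morphogenetic protein response element (GGCGCC) and an HNF1 element (GTTAAT); no 2 capital runs overlap. Orm1 lies at chr5:81788259-81788558 on the plus strand, Hamp at chr1:95300222-95300521 on the minus strand and Itih1 at chr16:6142764-6143063 on the minus strand.
Orm1: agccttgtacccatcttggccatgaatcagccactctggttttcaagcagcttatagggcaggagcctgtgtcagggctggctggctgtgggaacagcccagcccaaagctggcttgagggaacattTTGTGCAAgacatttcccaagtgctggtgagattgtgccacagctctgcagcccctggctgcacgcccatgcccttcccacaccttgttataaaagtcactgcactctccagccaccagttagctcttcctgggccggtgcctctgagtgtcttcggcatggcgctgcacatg
Hamp: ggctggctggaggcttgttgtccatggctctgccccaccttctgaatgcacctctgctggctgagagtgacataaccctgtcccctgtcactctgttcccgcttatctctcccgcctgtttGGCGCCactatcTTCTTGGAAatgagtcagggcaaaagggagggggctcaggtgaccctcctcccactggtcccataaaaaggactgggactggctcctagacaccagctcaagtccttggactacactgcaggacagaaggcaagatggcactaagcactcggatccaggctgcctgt
Itih1: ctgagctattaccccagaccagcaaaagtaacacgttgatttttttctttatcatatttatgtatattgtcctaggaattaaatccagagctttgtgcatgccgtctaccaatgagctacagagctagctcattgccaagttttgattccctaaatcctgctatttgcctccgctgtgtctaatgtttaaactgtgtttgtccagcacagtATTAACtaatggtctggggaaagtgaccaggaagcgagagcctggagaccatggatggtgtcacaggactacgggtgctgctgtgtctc
The Orm1 promoter held the C/EBP letters, beginning 123 bases before the start. In the Hamp promoter the response element letters began 129 bases and the STAT letters 117 bases before the start. The Itih1 promoter held the HNF1 letters 39 bases before the start. Of the 38 measured genes, 33 had a promoter in the table. The C/EBP letters were in 14 of these 33 (42.4%) and in 10.5% of 27457 promoters, the STAT letters in 9 (27.3%) and 8.68%, the HNF1 letters in 9 (27.3%) and 7.37%, and GGCGCC in 1 (3.03%) and 11.8%. A match describes the letters only and is not a binding site, and no test was made of these shares.

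At 881 mg/kg the plasma protein genes were called about as often as genes in general. Of the 38 genes, 3 rose (Orm1, Hamp and Pros1) and 4 fell (Itih1, Serpind1, Itih3 and Serpina1) in limma's test with p-values adjusted over all 14217 genes and a threshold of 0.05. That is 18.4% of the genes, against 19.5% of all genes. The 7.89% that rose stand beside 12.7% of all genes, and the 10.5% that fell beside 6.73%. The log2 changes ran from -0.98 (A2m) to 0.71 (Orm1), with a median of -0.03 and a median size of 0.12; over all genes these were 0.00072 and 0.149. In 17 of the 38 genes the change was under 0.1 in size, and in 3 (Orm1, A2m and Lcn2) it reached 0.5. With each array centred on its median, 4 rose and 1 fell, and 20.8% of all genes were called. Without 881 mg/kg replicate 2, 3 rose and 1 (Itih1) fell, 10.5% of the genes against 11.6% of all genes under the same setting. Without vehicle replicate 3 the count was also 4, against 17.8% of all genes.

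**Figure D1:**
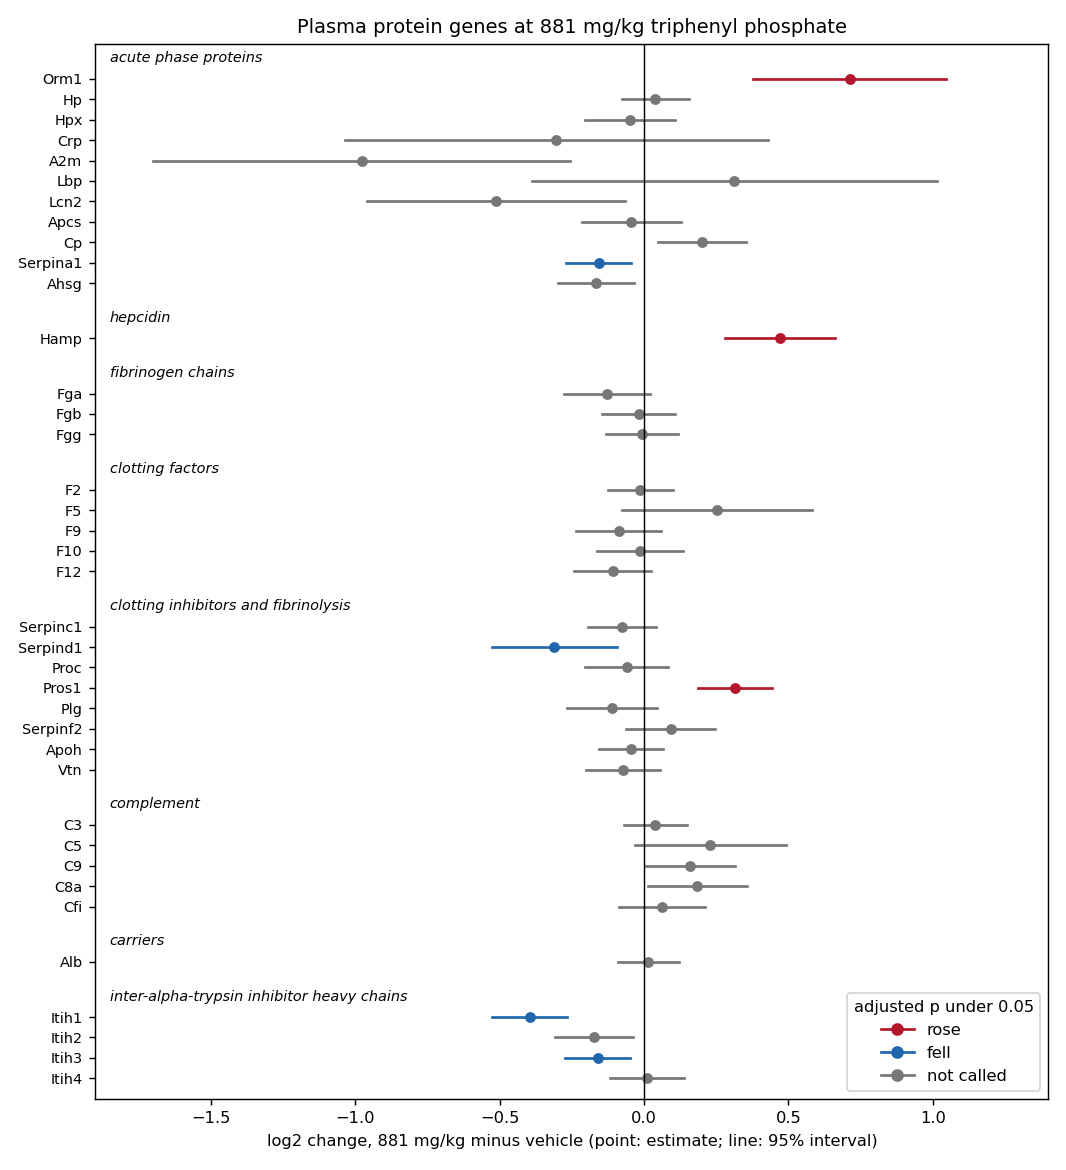
Change of each of the 38 plasma protein genes at 881 mg/kg, by role. The x axis is the log2 change against vehicle in limma's model (3 arrays against 5); points are estimates, lines are 95% intervals, and colour marks genes called up (3) or down (4). Most intervals include 0, and A2m, Crp, Lbp and Lcn2 have the widest ones.

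The levels of most of these genes were tight among the vehicle arrays. The SD over the 5 vehicle arrays had a median of 0.057 on the log2 scale, against 0.12 over all genes, and it was under 0.1 for 30 of the 38 genes and 33.8% of all genes. It was above 0.3 for 4 acute phase genes: A2m (0.62), Lbp (0.42), Orm1 (0.39) and Crp (0.34). The median standard error of a log2 change was 0.070 for the 38 genes and 0.10 for all genes, so smaller changes could be called here than for most genes. The signal of 10 genes (Hp, Serpina1, Ahsg, Fga, Fgb, Fgg, Apoh, C3, Alb and Itih3) lay within 1 log2 unit of the highest value on any array, 15.36. Whether probes near that value respond less to a change in RNA was not tested.

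**Figure D2:**
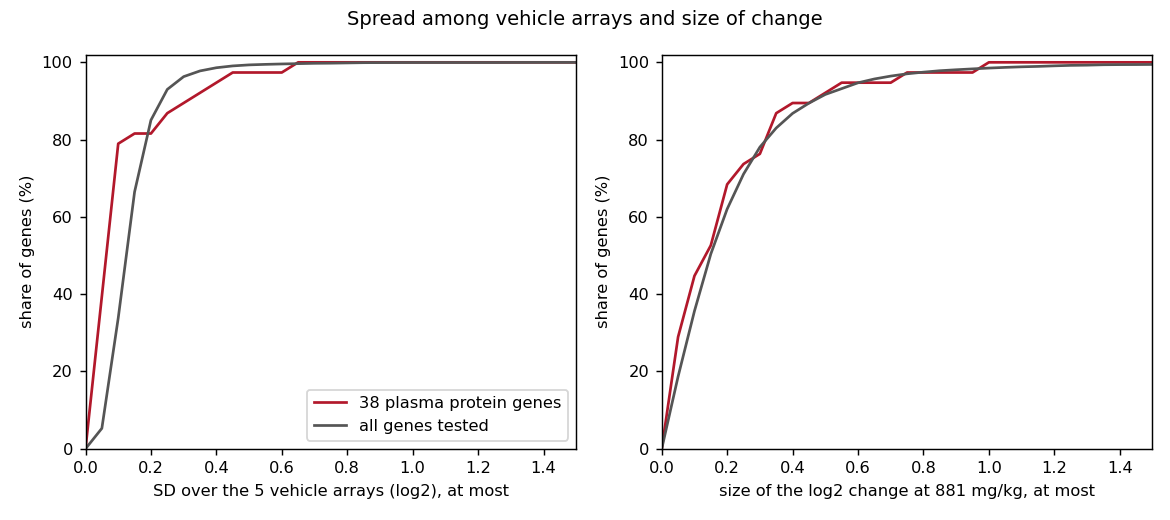
Cumulative shares of genes by their SD over the 5 vehicle arrays (left) and by the size of their log2 change at 881 mg/kg (right). The y axes give the share of genes in percent, the red line the 38 plasma protein genes and the grey line all 14217 genes. At an SD of 0.1 the red line stands at 78.9% and the grey at 33.8%; at a change of 0.5 they stand at 92.1% and 91.7%.

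On 881 mg/kg replicate 2 the 3′ end of the Gapdh control read 5.24 (log2) above its 5′ end. On the other 19 arrays this difference was 0.81 to 1.64. For the beta-actin control it was 3.47 against 1.67 to 2.72. For the hexokinase control it was 1.47, below the 1.54 to 2.05 of the other arrays, so the controls did not all differ in the same direction. The median correlation of 881 mg/kg replicate 2 with the other arrays was 0.983, against 0.990 to 0.994. Where a call described at 881 mg/kg differs without this array, both outcomes are given. The gene lists below share some genes, and their counts stand beside the 19.5% of all genes called at 881 mg/kg. Without this array that share was 11.6%. In liver tissue, fewer cells of a type and less RNA per cell cannot be told apart. Hepatocyte markers were present at high signal: the summed linear signal of 12 of 14 listed markers was 203570 to 207900 on the vehicle arrays and 196440 to 200080 at 881 mg/kg, where 1 rose (Apoa1) and 2 fell (Cyp2e1 and Cps1); Cps1 was not called without 881 mg/kg replicate 2 (adjusted p = 0.155).

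Orm1 encodes orosomucoid, an acid glycoprotein of plasma that binds drugs and rises in the acute phase. Its log2 level was 13.03, 12.56, 13.18, 13.40 and 13.60 on the vehicle arrays and 13.89, 13.71 and 13.99 at 881 mg/kg. All 3 arrays of the top dose lay above all 5 vehicle arrays. Orm1 rose 1.64-fold (95% interval 1.30 to 2.06), a log2 change of 0.71 ± 0.16 (SE, limma adjusted p = 0.00430). It stayed called without any 1 of the 8 arrays, with changes of 0.56 to 0.82. At 55 mg/kg the arrays read 13.82, 13.72 and 13.81, at 110 mg/kg 13.67, 13.53 and 13.65, at 220 mg/kg 13.82, 13.46 and 13.67, and at 440 mg/kg 13.73, 13.68 and 13.99. The lowest dose thus already stood at the level of the higher ones. The change at 55 mg/kg was 0.63 ± 0.16 (limma adjusted p = 0.0386) and at 440 mg/kg 0.65 ± 0.16 (adjusted p = 0.0125). At 110 and 220 mg/kg it was 0.46 (adjusted p = 0.134) and 0.49 (adjusted p = 0.104), short of the threshold. The call at 55 mg/kg was lost when vehicle replicate 1, 2 or 3 or any 1 of the 3 dosed arrays was left out (adjusted p = 0.0565 to 0.131), and the call at 440 mg/kg without 440 mg/kg replicate 3 (adjusted p = 0.0808).

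Among 11 measured acute phase genes, Orm1 rose and Serpina1 fell at 881 mg/kg, and the other 9 did not pass the test. Hp, the haemoglobin-binding haptoglobin, read 14.66 to 14.79 with a median of 14.75 on the vehicle arrays and 14.79, 14.74 and 14.81 at 881 mg/kg, a log2 change of 0.039 with a 95% interval of -0.077 to 0.15 (limma adjusted p = 0.670). The groups overlapped. Serpina1, the alpha-1-antitrypsin that inhibits neutrophil elastase, read 14.80, 14.81, 14.87, 14.86 and 14.86 on the vehicle arrays and 14.69, 14.65 and 14.70 at 881 mg/kg. All 3 dosed arrays lay below all vehicle arrays, and the fall was by 0.16 ± 0.054 on the log2 scale (limma adjusted p = 0.0470). That call was lost when any 1 of the 8 arrays was left out (adjusted p = 0.0540 to 0.143; 0.143 without 881 mg/kg replicate 2) and with arrays centred on their medians (-0.11, adjusted p = 0.173).

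A2m, Crp, Lbp and Lcn2 varied widely between arrays, and none of them was called at 881 mg/kg. A2m, the protease inhibitor alpha-2-macroglobulin, read 9.35, 10.06, 11.10, 10.22 and 10.08 on the vehicle arrays and 10.08, 8.30 and 9.17 at 881 mg/kg. The lowest value was that of 881 mg/kg replicate 2. Its log2 change was -0.98 ± 0.34 (limma adjusted p = 0.0532), and without that array -0.53 (adjusted p = 0.350). Crp, C-reactive protein, read 13.45, 12.63, 12.62, 12.77 and 12.88 on the vehicle arrays and 13.26, 11.35 and 13.09 at 881 mg/kg. Here too replicate 2 was lowest, and the change was -0.30 with it and 0.30 without it, neither called. Lcn2, lipocalin 2, which binds bacterial iron carriers and is also made by neutrophils, read 6.75, 6.21, 6.45, 6.94 and 6.65 on the vehicle arrays and 6.53, 6.17 and 5.56 at 881 mg/kg, with a change of -0.51 ± 0.21 (limma adjusted p = 0.10). Of 7 measured neutrophil markers limma called none at 881 mg/kg, and 0 had an unadjusted p under 0.05, against 33.4% of all genes. Their median change was -0.080, with summed signals of 352 to 566 against 504 to 561 on the vehicle arrays. The part of these markers in the Lcn2 values was not tested. Lbp, the lipopolysaccharide-binding protein, had a change of 0.31 ± 0.33 (adjusted p = 0.548), or 0.60 without 881 mg/kg replicate 2 (adjusted p = 0.321). The fetuin gene Ahsg (-0.17, adjusted p = 0.0698; -0.087 without that array), the haem carrier Hpx (-0.048; 0.053 without it) and Apcs, serum amyloid P (-0.044), were not called either. For Cp, the copper-carrying ferroxidase ceruloplasmin, the probe sets disagreed. The chosen one had a change of 0.20 ± 0.073 (adjusted p = 0.0598) and, tested over all probe sets, a further one had 0.22 (adjusted p = 0.158), while the third fell by 0.41 ± 0.11 on the log2 scale (adjusted p = 0.0221).

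Hamp, the hepcidin gene, rose at 4 of the 5 doses. It read 13.57, 13.75, 13.86, 13.90 and 13.71 on the vehicle arrays. At 55 mg/kg it read 14.08, 14.15 and 14.03, at 110 mg/kg 14.12, 14.23 and 13.98, at 220 mg/kg 14.22, 14.21 and 14.32, at 440 mg/kg 14.15, 13.92 and 14.13, and at 881 mg/kg 14.41, 14.09 and 14.18. Every dosed array stood above the highest vehicle array, as was also the case for Pros1. How many of all genes share this pattern was not counted. The log2 changes were 0.33 (limma adjusted p = 0.0554), 0.35 (0.0373), 0.49 (0.00542), 0.31 (0.0352) and 0.47 ± 0.091 (0.00145) in order of dose, the last a 1.39-fold rise. The calls at 220 and 881 mg/kg stood without any 1 of the arrays compared. At 110 mg/kg the call was lost without vehicle replicate 1, 2 or 5 or 110 mg/kg replicate 1 or 2 (adjusted p = 0.0676 to 0.177), and at 440 mg/kg without vehicle replicate 1, 2 or 5 or 440 mg/kg replicate 1 or 3 (adjusted p = 0.0603 to 0.144).

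Of 14 measured genes of hepcidin and iron control (19 symbols listed, alternative names included), 1 rose and 2 fell at 881 mg/kg. The median change was -0.11. Without 881 mg/kg replicate 2, 2 rose and 2 fell. Among all genes 19.5% were called at that dose, and 11.6% without that array. Slc40a1, which encodes the iron exporter ferroportin, rose by 0.58 ± 0.099 (limma adjusted p = 0.000515). Steap3, a reductase of endosomal iron, fell by 1.02 ± 0.14, and Atoh8, a target of bone morphogenetic protein signalling, fell by 0.66 ± 0.12 on the log2 scale. Bmp6 (-0.15), Id1 (-0.31), Smad7 (0.09), Hjv (-0.15), Tfr2 (0.09) and Hfe (0.02), all parts or targets of the pathway that controls Hamp, were not called; without replicate 2 Hfe was called, with a rise of 0.32 (adjusted p = 0.0227). Of 5 measured red cell markers 2 fell at the same dose: the haemoglobin gene Hbb, with a change of -2.23, and Alas2, the erythroid enzyme of haem synthesis, with -1.75. The summed red cell signal was 5913 to 10935 on the vehicle arrays and 1166 to 3727 at 881 mg/kg, and its part in the iron genes was not tested.

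**Figure D3:**
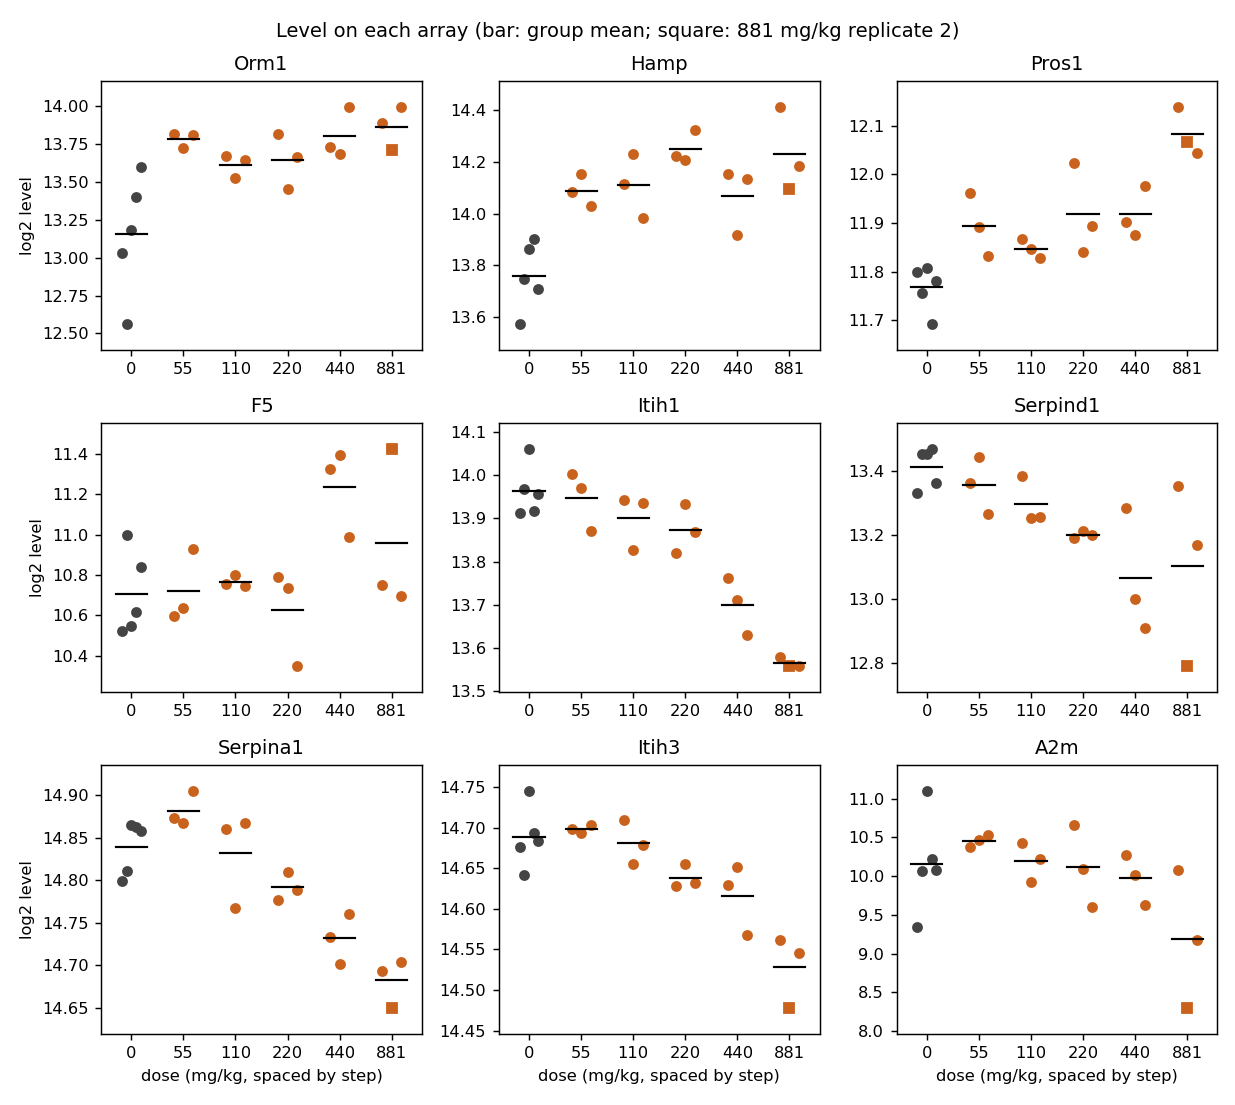
Log2 level on each array for 9 plasma protein genes, by dose in mg/kg (steps evenly spaced). Points are arrays, bars group means and the square 881 mg/kg replicate 2. All Hamp arrays from 55 mg/kg on stand above all vehicle arrays, 1 Orm1 array at 110 and at 220 mg/kg lies below the highest vehicle array, and Itih1 reaches 13.58, 13.56 and 13.56 at 881 mg/kg.

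None of the 3 fibrinogen genes passed limma's test at any dose, and of 15 comparisons of these genes with vehicle 0 had an unadjusted p under 0.05. In order of dose, 15.9%, 16.7%, 16.6%, 25.6% and 33.4% of all genes passed that limit. Fga read 14.68 to 14.79 with a median of 14.75 on the vehicle arrays and 14.73, 14.48 and 14.64 at 881 mg/kg, a log2 change of -0.13 (95% interval -0.28 to 0.022, limma adjusted p = 0.221). Fgb read 14.54 to 14.60 (median 14.57) and 14.66, 14.46 and 14.52, a change of -0.019 (interval -0.14 to 0.11). Fgg read 14.69 to 14.76 (median 14.73) and 14.79, 14.64 and 14.71, a change of -0.0066 (interval -0.13 to 0.12). In each the array groups overlapped and 881 mg/kg replicate 2 was the lowest of its group. A second Fga probe set had a change of -0.37 (adjusted p = 0.0988) and those of Fgb 0.12 and 0.13, none called.

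Among 5 measured clotting factors limma called none at 881 mg/kg, against 19.5% of all genes. There 0 had an unadjusted p under 0.05, against 33.4% of all genes. F2, prothrombin, read 13.99 to 14.09 (median 14.02) on the vehicle arrays and 14.06, 13.97 and 14.03 at 881 mg/kg, a change of -0.012 with a 95% interval of -0.13 to 0.10. F9, factor IX, had a change of -0.088 (interval -0.23 to 0.058), F10, factor X, one of -0.013 (interval -0.16 to 0.14), and F12, factor XII, one of -0.11 (limma adjusted p = 0.248). F5, the cofactor of factor X in the making of thrombin, differed from these. It read 10.52, 10.998, 10.55, 10.62 and 10.84 on the vehicle arrays, 11.33, 11.39 and 10.99 at 440 mg/kg, and 10.75, 11.43 and 10.70 at 881 mg/kg. F5 rose at 440 mg/kg by 0.53 ± 0.16 (adjusted p = 0.0348), and that call ended when leaving out vehicle replicate 1, 3 or 4 or 440 mg/kg replicate 1 or 2 (adjusted p = 0.0704 to 0.159). At 881 mg/kg its change was 0.25 (adjusted p = 0.273), and 0.020 without replicate 2, the highest array.

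The inhibitors and the fibrinolysis genes held a rise and a fall. Pros1 encodes protein S, the cofactor of activated protein C. It read 11.80, 11.76, 11.81, 11.69 and 11.78 on the vehicle arrays and 12.14, 12.07 and 12.04 at 881 mg/kg, with no overlap. It rose 1.24-fold, by 0.31 ± 0.061 on the log2 scale (limma adjusted p = 0.00155), and stayed called without any 1 of the 8 arrays. At the 4 lower doses its changes were 0.13, 0.079, 0.15 and 0.15, none called. All arrays of these doses also stood above the highest vehicle array. Serpind1, heparin cofactor II, which inhibits thrombin, read 13.33, 13.45, 13.45, 13.47 and 13.36 on the vehicle arrays, 13.29, 13.001 and 12.91 at 440 mg/kg, and 13.35, 12.79 and 13.17 at 881 mg/kg. One array of the top dose lay among the vehicle arrays. Serpind1 fell by 0.35 ± 0.10 (adjusted p = 0.0345) at 440 mg/kg and by 0.31 ± 0.10 (adjusted p = 0.0402) at 881 mg/kg. The first call was lost without vehicle replicate 2, 3 or 4 or 440 mg/kg replicate 2 or 3 (adjusted p = 0.0609 to 0.175). The second was lost without vehicle replicate 2, 3 or 4 or 881 mg/kg replicate 2 or 3 (adjusted p = 0.0525 to 0.313), and the change was -0.15 without 881 mg/kg replicate 2.

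Serpinc1, antithrombin, read 14.30 to 14.38 (median 14.37) on the vehicle arrays and 14.33, 14.17 and 14.32 at 881 mg/kg, a change of -0.077 with a 95% interval of -0.19 to 0.041. Proc, protein C, read 13.08 to 13.31 (median 13.26) and 13.11, 13.26 and 13.15, a change of -0.060 (interval -0.21 to 0.084). Plg (plasminogen, -0.11; -0.016 without 881 mg/kg replicate 2), Serpinf2 (the plasmin inhibitor alpha-2-antiplasmin, 0.092), Apoh (-0.045) and Vtn (vitronectin, -0.074) were not called. Of 6 vitamin K dependent genes in the set, 5 were measured (F2, F9, F10, Proc and Pros1), and Pros1 alone was called; the changes of the other 4 lay between -0.088 and -0.012.

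Genes of vitamin K recycling and use were measured beside them. Of 6 measured genes of the vitamin K cycle (8 symbols listed, alternative names included), 4 rose at 881 mg/kg, with a median change of 0.52. These were the quinone reductase Nqo1 (1.79 ± 0.25), Aifm2 (0.59 ± 0.18), Vkorc1l1 (0.57 ± 0.10) and the gamma-carboxylase Ggcx (0.27 ± 0.087, limma adjusted p = 0.0362), while Vkorc1, the target of warfarin (-0.02), and Gas6, a vitamin K dependent ligand (0.47, adjusted p = 0.125), were not called. Without 881 mg/kg replicate 2 the count was 2 (Nqo1 and Vkorc1l1) and the median 0.42, with an adjusted p of 0.170 for Aifm2 and 0.133 for Ggcx. Of 21 other clotting and fibrinolysis genes (25 listed), 3 rose and 1 fell: Serpina5, the protein C inhibitor (0.90), Serpina10, the protein Z-dependent inhibitor (0.58), Tfpi, tissue factor pathway inhibitor (0.52), and Thbd, thrombomodulin of endothelial cells (-0.57). Their median was 0.0068, and 19.5% of all genes were called at this dose (11.6% without replicate 2). Without replicate 2 Serpina10 alone was called, with 0.59 for Serpina5 (adjusted p = 0.0653), 0.37 for Tfpi (0.0528) and -0.56 for Thbd (0.0777). Of 10 measured endothelial markers 3 fell (1 without replicate 2), with a summed signal of 7977 to 10453 on the vehicle arrays and 5241 to 8802 at 881 mg/kg, and their part in the Thbd value was not tested.

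Limma called none of the 5 complement genes at any dose. Of 25 comparisons with vehicle 3 had an unadjusted p under 0.05: C9 at 440 and 881 mg/kg and C8a at 881 mg/kg. Of all genes, 15.9%, 16.7% and 16.6% passed that limit at 55, 110 and 220 mg/kg, 25.6% at 440 mg/kg and 33.4% at 881 mg/kg. C3, the protein on which all complement pathways meet, read 14.78 to 14.86 (median 14.84) on the vehicle arrays and 14.89, 14.86 and 14.87 at 881 mg/kg, a log2 change of 0.039 with a 95% interval of -0.070 to 0.15. The terminal components C5 (0.23, limma adjusted p = 0.209; 0.064 without 881 mg/kg replicate 2), C8a (0.18, adjusted p = 0.119) and C9 (0.16, adjusted p = 0.145) and the protease Cfi, which inactivates C3b (0.064), had changes above 0 that did not pass. The 4 probe sets that Cfb shares with C2 had changes of 0.25, 0.10, 0.030 and -0.17, none called. Of 20 other complement genes (26 listed), 1 rose and 4 fell, with a median of -0.16. The lectin pathway genes Colec11 (-0.61 ± 0.12), Masp1 (-0.32) and Mbl2 (-0.22) and the membrane inhibitor Cd59b (-0.31) fell, and clusterin, Clu, rose by 0.36. Other lectin pathway genes, Masp2 (0.16), Mbl1 (0.030) and Fcnb (-0.18), were not called. Without 881 mg/kg replicate 2, 2 rose and 2 fell. Masp1 (adjusted p = 0.0600), Cd59b (0.148) and Mbl2 (0.194) were then no longer called, while Masp2 rose by 0.34 (adjusted p = 0.0258). The complement genes C1qa, C1qb and C1qc are not in this list and were counted among the Kupffer cell and macrophage markers. Their log2 changes at 881 mg/kg over all arrays were larger, -0.88, -1.13 and -0.90. Of those 11 markers 9 fell, and 4 without replicate 2.

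Itih1 to Itih4 encode heavy chains that are joined to the inhibitor bikunin or circulate alone and bind hyaluronan. Itih1 had the smallest p of the 38 genes. It read 13.91, 13.97, 14.06, 13.92 and 13.96 on the vehicle arrays, 13.76, 13.71 and 13.63 at 440 mg/kg, and 13.58, 13.56 and 13.56 at 881 mg/kg. Neither dose overlapped vehicle. The fall was 1.32-fold at 881 mg/kg, by 0.40 ± 0.062 on the log2 scale (limma adjusted p = 0.000243), and it stayed called without any 1 of the 8 arrays. At 440 mg/kg it fell by 0.26 ± 0.062 (adjusted p = 0.00958), and leaving out 440 mg/kg replicate 3 ended that call (adjusted p = 0.0655). At 55, 110 and 220 mg/kg the changes were -0.015, -0.062 and -0.089. Itih3 read 14.68, 14.64, 14.74, 14.69 and 14.68 on the vehicle arrays and 14.56, 14.48 and 14.55 at 881 mg/kg, with no overlap. It fell by 0.16 ± 0.054 (adjusted p = 0.0431); leaving out any array but vehicle replicate 2 ended the call (adjusted p = 0.0583 to 0.157), as did median centring (adjusted p = 0.160). Itih2 read 13.64, 13.74, 13.74, 13.69 and 13.68 on the vehicle arrays and 13.48, 13.61 and 13.48 at 881 mg/kg, below all of them, with a change of -0.17 ± 0.065 that did not pass (adjusted p = 0.0673). Itih4 had a change of 0.0088.

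Alb, the gene of serum albumin, read 15.30 to 15.35 (median 15.35) on the vehicle arrays and 15.35, 15.35 and 15.36 at 881 mg/kg. The groups overlapped, and the change was 0.015 with a 95% interval of -0.090 to 0.12; a second probe set had -0.021. Its level lies at the top of the array's range. The probe sets that Tf shares with Srprb had changes of 0.0090 and 0.38, and the one that Kng1 shares with Kng2 and Kng2l1 had 0.22 (limma adjusted p = 0.114), none called.

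Across the lower doses few of these genes were called. All doses were compared with the same 5 vehicle arrays, so the comparisons share them. At 55 mg/kg 1 of the 38 genes passed (Orm1, 2.63%, against 2.81% of all genes), at 110 mg/kg 1 (Hamp, against 3.61%), and at 220 mg/kg 1 (Hamp, against 3.43%). At 440 mg/kg Orm1, Hamp and F5 rose and Serpind1 and Itih1 fell, 13.2% of the genes against 11% of all genes. Without 440 mg/kg replicate 3, 1 of the 38 genes was called (2.63%), against 6.65% of all genes under the same setting. Over the 5 doses, the comparison of the highest doses and the trend over all groups, 9 of the 38 genes were called at least once and 29 never. Between 440 and 881 mg/kg limma called none of the 38 (1 at an unadjusted p under 0.05, Pros1 at 0.16 ± 0.069) and 0.26% of all genes, with 10.6% of all genes at an unadjusted p under 0.05.

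**Figure D4:**
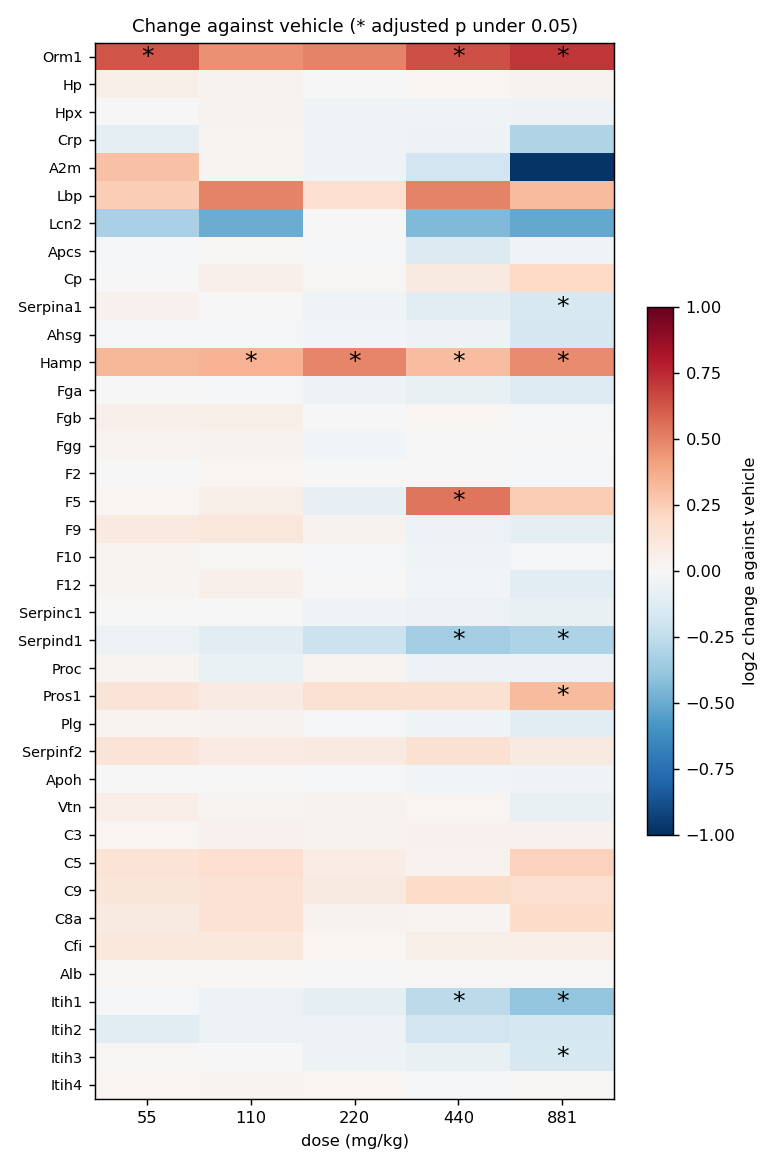
Log2 change of the 38 plasma protein genes against vehicle at each dose (mg/kg, x axis), with genes in the order of their roles. Red is higher and blue lower than vehicle, the scale ends at 1 in either direction, and a star marks a limma adjusted p under 0.05. Stars stand at 1 gene at 55, 110 and 220 mg/kg, 5 at 440 mg/kg and 7 at 881 mg/kg.

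A trend over the dose steps, from 0 for vehicle to 5 for 881 mg/kg, called 8 of the 38 genes (21.1%), against 21.7% of all genes. Orm1 (0.12 per step, limma adjusted p = 0.00848), Hamp (0.080, 0.00508) and Pros1 (0.050, 0.00220) rose. Itih1 (-0.074, 9.99e-05), Serpind1 (-0.072, 0.00353), Serpina1 (-0.033, 0.0114), Itih3 (-0.029, 0.0229) and Itih2 (-0.033, 0.0359) fell. With dose in mg/kg in place of the step the Hamp trend was not called (adjusted p = 0.0595). The Itih3 trend was lost without 881 mg/kg replicate 2 (adjusted p = 0.0648), with median centring (0.0941) and with the actin control as a covariate (0.0511). The Itih2 trend was lost without vehicle replicate 2, 3, 4 or 5, 440 mg/kg replicate 2 or 3, or 881 mg/kg replicate 1 or 3 (adjusted p = 0.0529 to 0.0703), with median centring (0.109) and with dose in mg/kg (0.0517).

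A trend over the 5 dosed groups alone, chosen after seeing the data, asked whether the levels went on changing from 55 to 881 mg/kg. It called 3 of the 38 genes (7.89%), all falling, against 8.96% of all genes. Itih1 fell by 0.096 ± 0.017 per step (limma adjusted p = 0.00214), Serpina1 by 0.050 ± 0.013 (adjusted p = 0.0286) and A2m by 0.28 ± 0.077 (adjusted p = 0.0325). Itih1 stayed called without any 1 of the 15 arrays. Serpina1 was lost without any 1 of the 55 mg/kg arrays or 881 mg/kg replicate 2 or 3 (adjusted p up to 0.0572). A2m was lost without the same arrays or 110 mg/kg replicate 1 (adjusted p = 0.0524 to 0.0785), its slope being -0.18 without 881 mg/kg replicate 2. Orm1 (0.035 per step, adjusted p = 0.445), Hamp (0.024, 0.572) and Pros1 (0.045, 0.115) were not called among the dosed groups.

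At 881 mg/kg all dosed arrays lay above all vehicle arrays for 5 of the 38 genes (13.2%: Orm1, Hamp, Pros1, Serpinf2 and C8a), against 13.4% of all genes, and below them for 5 (13.2%: Serpina1, Ahsg, Itih1, Itih2 and Itih3), against 8.31%.

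Genes of the signalling behind the acute phase, inhibitors such as Socs3 among them, were mixed at 881 mg/kg. Of 21 measured genes of interleukin 6 and interleukin 1 signalling, 2 rose and 3 fell, with a median change of -0.11. Without 881 mg/kg replicate 2, 1 rose and 3 fell, with a median of -0.060. Among all genes 19.5% were called, and 11.6% without that array. The interleukin 1 receptor Il1r1 (0.63 ± 0.19) and Tnfrsf1a, a receptor of tumour necrosis factor (0.51), rose. Il6st, the shared receptor chain of the interleukin 6 family (-0.36), Junb (-0.56) and Relb (-0.27) fell. Without that array Tnfrsf1a (0.31, adjusted p = 0.0764) and Junb (-0.59, adjusted p = 0.0690) were not called. Stat3 (0.47, limma adjusted p = 0.169) and its target Socs3 (-0.28, adjusted p = 0.126) were not called. Of 12 measured liver transcription factors of plasma protein genes (14 listed), 4 rose and 1 fell, with a median of 0.10. Dbp (3.83) and Tef (0.89), which are clock-controlled, Foxa2 (0.69) and Nr5a2 (0.44) rose and Foxa3 (-1.56, or -0.96 without replicate 2) fell. Hnf4a had a change of -0.07 and Cebpa one of 0.01.

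Among other secreted liver proteins most called genes fell. Of 33 measured (38 listed), 1 rose and 8 fell, with a median change of -0.14. Without 881 mg/kg replicate 2 the counts were 1 and 4. The list also holds Ahsg, already described among the plasma protein genes, and Hgfac of the clotting list. It shares Ttr, Apoa1, Apob and Gc with the hepatocyte markers. Serpina7, the thyroxine-binding globulin, fell by 2.34 ± 0.31 on the log2 scale, Mug1, a murinoglobulin related to A2m, by 1.51 ± 0.45, Igfbp2, a carrier of insulin-like growth factors, by 0.94 ± 0.27, and Afm, the vitamin E carrier afamin, by 0.49 ± 0.15. Without replicate 2 Serpina7 was still called (-2.30), while Mug1 (-0.65, adjusted p = 0.228), Igfbp2 (-0.88, adjusted p = 0.0791) and Afm (-0.24, adjusted p = 0.211) were not. Of 36 measured genes of the secretory pathway (38 listed), 7 rose and 1 fell, with a median of 0.090; Sec11a of the signal peptidase (0.40), Stt3a of the oligosaccharyltransferase (0.40) and Sec24d of the coat of secretory vesicles (0.39) rose, and Xbp1, the transcription factor of the unfolded protein response, fell by 0.55. Without replicate 2 the counts were 4 and 1, and Stt3a was not called (0.23, adjusted p = 0.198). Beside both lists, 12.7% of all genes rose and 6.73% fell at 881 mg/kg, and 7.62% and 3.93% without replicate 2.

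Markers of the other liver cell types were counted as well. Of 11 measured Kupffer cell and macrophage markers 9 fell at 881 mg/kg (median -0.70; 4 without replicate 2), with summed signals of 13751 to 17321 on the vehicle arrays and 7546 to 12046 at 881 mg/kg. Of 12 stellate cell and fibroblast markers 8 fell (median -0.58; 3 without replicate 2), with 6727 to 8437 against 3800 to 5639. Of 10 lymphocyte markers 4 fell (1 without replicate 2), with 936 to 972 against 709 to 869. Of 6 bile duct markers Epcam alone was called, a rise of 0.86. The part of these markers in the changes of the plasma protein genes was not tested.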

How the data were processed

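The deposited table holds 1 log2 value per probe set and array for 20 arrays; RMA is the tool that the submitters' processing notes name for it. That method usually corrects background and equalises quantiles between arrays, which removes differences in total RNA. The log2 scale was taken from the values; the RMA version was not given in the sources used here, nor were scan batches. Array medians lay between 6.31 and 6.39, and the largest share of identical values between any 2 arrays was 0.0226%. Of 31099 probe sets, 57 controls were set aside. The platform annotation, possibly out of date, named a single gene for 20826 probe sets, more than 1 gene for 436 and no gene for 9780. By gene ID, 20758 single-gene probe sets matched RefSeq, with 0 symbols changed.

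One linear model of the 6 dose groups was fitted over all genes with limma 3.58.1 in R 4.3.3 (lmFit, eBayes), so that groups share 1 estimate of the spread. Tests were two-sided with Benjamini-Hochberg adjustment over 14217 genes, with no filter on signal or fold; "rose" and "fell" mean an adjusted p under 0.05. The trend used the dose step as 1 numeric term. Tables were made in Python 3.11.15 (NumPy 2.4.6, pandas 2.3.3) and figures with matplotlib 3.10.9. The model was tested on simulated data for 881 mg/kg against vehicle. It recovered 69 of 100 log2 changes of size 0.5 and 97 of 100 of size 1, with 10 false calls. The simulated arrays were independent and did not carry deviations shared by same-numbered arrays. Precision is limited by how few arrays each group has.

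The members and gene lists were chosen with earlier results of these data known. Single values are given for members called anywhere, for Alb, fibrinogen, Crp, A2m, Hp, C3, F2, Serpina1, Serpinc1, Lcn2 and the vitamin K dependent genes, and up to 4 called genes of each other list; further list genes named were chosen after their values were seen. Alternatives were median centring, the mean of a gene's probe sets, a signal filter, other variance models, array weights, an RNA quality covariate, a replicate block, 2 groups alone and leaving out each array.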

Additional observations from a re-analysis of the deposited data

Results flagged for a closer look

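In the vehicle group, the log2 levels of 38 genes were searched for a single array whose gap to the others was large against the group's range (Dixon's criterion at the 95% level); chance marks about 1 group in 20, and 2 were marked. C5 read 12.039 on vehicle replicate 1 and 12.45 to 12.567 on the other 4 arrays. Alb read 15.301 on vehicle replicate 2 and 15.339 to 15.353 on the other 4.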

How the results depend on the processing

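At 881 mg/kg Orm1, Hamp, Pros1 and Itih1 were called in all 16 alternatives, Serpind1 in 6, and Itih3 and Serpina1 in 4 each; no called result changed direction. The 7 calls at 881 mg/kg became 11 of 37 among genes above the median signal. Fewer genes are tested there, and 31.0% of them all were called. With only the 2 groups fitted the calls were 4, against 12.6% of all genes. With each array left out in turn they were 4 to 7, against 11.6 to 19.2% of all genes. The counts were 1 to 4 at 440 mg/kg (6.10 to 10.1% of all genes) and 1 to 2 at 220 mg/kg (1.43 to 3.21%). They were 0 to 1 at 110 mg/kg (1.49 to 3.38%) and 0 to 1 at 55 mg/kg (0.893 to 2.75%). Between 440 and 881 mg/kg the count was 0 (0.0070 to 0.80%), and for the trend it was 7 to 10 (17.0 to 21.9%). At 55 mg/kg the count was 2 with the signal filter (6.32% of all genes tested) and with the trended and robust variance (2.76%). It was also 2 with the actin covariate (4.77%) and with array weights (5.92%), and 0 with only 2 groups fitted (3.22%). The count was also 0 at 110 mg/kg with only 2 groups fitted (3.31%). At 220 mg/kg it was 2 with array weights (9.09%). The trend called 3 genes in the dosed groups alone, against 8.96% of all genes.

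Replicate numbers do not pair the arrays by the labels. Of 45 same-numbered pairs, 28 had deviations correlated above 0.1 (median 0.136, range -0.12 to 0.35). Of 120 different-numbered pairs, 13 did (median -0.050, range -0.28 to 0.22). Deviations were thus shared more often by arrays of the same number, a pattern from the data only. The main model held no term for the number. Of 20 arrays, 15 correlated best with their own number, and vehicle arrays numbered above 3 had no same-numbered partner. With the number as a replicate block 6 genes were called at 881 mg/kg (18.1% of all genes) and 3 at 440 mg/kg (10.2%). The counts were 2 at 220 mg/kg (2.26%), 1 at 110 mg/kg (2.50%), 1 at 55 mg/kg (1.98%) and 8 for the trend (19.5%). Under the block Hamp was not called at 110 mg/kg (adjusted p = 0.0745) or 440 mg/kg (0.0583), Serpind1 not at 440 (0.0736) or 881 mg/kg (0.0800), Itih3 (0.111) and Serpina1 (0.140) not at 881 mg/kg and Itih2 not in the trend (0.0660), while Orm1 was called at 110 (0.00204) and 220 mg/kg (0.00183), C5 at 881 mg/kg (0.0481) and Cp at 881 mg/kg (0.0422) and in the trend (0.0299). The cause of these differences was not tested. For the 10 genes with signals near the top of the range, whether the array responds less was not tested.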

Other observations

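Crp and Lbp differed between dosed arrays by the replicate number in the titles, a pattern seen in the values. Over the 5 dosed groups Lbp read 10.24 to 10.35 on the arrays numbered 1, 8.98 to 9.88 on those numbered 2 and 9.88 to 10.51 on those numbered 3. Crp read 13.08 to 13.28 on those numbered 1, 11.35 to 12.81 on those numbered 2 and 12.60 to 13.27 on those numbered 3. The arrays numbered 1 and 2 did not overlap for 4 of the 38 plasma protein genes (Crp, Lbp, F10 and C5; 10.5%) and for 3.79% of all genes. The sources used here do not say what the numbers stand for, and no test was made of this difference.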
